A study of Mus musculus with 5 samples.

Results

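Basement membranes are thin sheets of matrix laid against cells, built from a laminin network and a type IV collagen network that nidogens and heparan sulfate proteoglycans tie together. A laminin is a trimer of 1 alpha, 1 beta and 1 gamma chain, and its alpha chain carries most of the sites that integrins and dystroglycan bind on the cell surface. In bone marrow, laminins surround the sinusoids and arterioles, and the reticular stroma is a known source of them. The genes described here are 3 laminin alpha chains (Lama2, Lama4 and Lama5), 2 beta chains (Lamb1 and Lamb2), the gamma chain Lamc1, the nidogens Nid1 and Nid2, and the proteoglycans perlecan (Hspg2) and agrin (Agrn). These 10 genes were chosen by name from the 30046 features of the count table, through their Ensembl identifiers. Earlier results of these data were known when they were chosen.

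The study asked how bone marrow stromal cells of different fetal origin differ. Cxcl12-abundant reticular (CAR) cells are the marrow stromal cells marked by a Cxcl12 GFP reporter. They were sorted as GFP+tdTomato+ cells from femurs at postnatal day 21, after a single tamoxifen pulse at embryonic day 12.5. The paper states that the gate took cells with high GFP, so the sort itself selected on the Cxcl12 reporter. The 3 Dlx5 libraries came from Cxcl12(GFP/+); Dlx5(CreER/+); R26R(tdTomato/+) mice, in which Dlx5-expressing fetal perichondrial cells were labelled, and the 2 Fgfr3 libraries came from Cxcl12(GFP/+); Fgfr3-iCreER; R26R(tdTomato/+) mice, in which Fgfr3-expressing fetal chondrocytes were labelled by a transgene. All libraries therefore carried 1 GFP allele at Cxcl12 and had been exposed to tamoxifen, and no library came from mice without a Cre. Cells of littermates were pooled for each library, and the growth plates were cut away beforehand. The purity of the sorted cells is not given. The methods assign the Dlx5 libraries to paired-end reads on a NovaSeq and the Fgfr3 libraries to shorter single-end reads on a HiSeq, whereas the labels name a HiSeq for both, so the lineage and the sequencing run cannot be told apart.

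Total counts were 22035650 to 32563758 in the Dlx5 libraries and 56355203 to 58166285 in the Fgfr3 libraries. Levels are given as CPM, the count of a gene scaled to a common library size after TMM normalization. Before the TMM factors were applied, 3 counts corresponded to 0.0516 to 0.136 CPM. The labelled cell type was checked on 7 CAR cell markers, all of which were detected in every library. Their summed level was 28400 to 29600 CPM in the Dlx5 libraries and 7900 to 11600 CPM in the Fgfr3 libraries. Most of this sum was Cxcl12 itself, whose reporter the sort selected on, at 21254.1 to 22407.6 CPM in Dlx5 and 5801.3 and 8066.6 CPM in Fgfr3. Of the 7 markers, 4 were called higher in Dlx5 against 1 higher in Fgfr3, the transcription factor Foxc1. Pan-leukocyte markers summed to 342 to 412 CPM in Dlx5 and 1110 to 2310 CPM in Fgfr3, and all 10 of them were called higher in Fgfr3. Summed levels of endothelial markers (10 genes) were 40.1 to 61.7 and 50.1 to 78.4 CPM, those of mural markers (10 genes) 298 to 451 and 340 to 450 CPM, and those of chondrocyte markers (8 genes) 133 to 138 and 437 to 3240 CPM, in Dlx5 and Fgfr3 respectively. Most of the chondrocyte sum was Sox9 in Dlx5 (116.6 to 124.1 CPM, against 53.7 to 96.8 CPM in Fgfr3). In Fgfr3 most of it was Col2a1 (342.7 to 2597.3 CPM, against 0.756 to 7.01 CPM in Dlx5). Of the mural markers 8 were tested, and 4 of them (Mcam, Cspg4, Acta2 and Tagln) were called higher in Fgfr3 and none in Dlx5. Myh11 was too low to be tested and lay higher in Dlx5, at 2.92 to 7.84 CPM against 0.489 to 0.861 CPM. Erythroid markers (8 genes) summed to 14700 to 29700 CPM in Dlx5 and 9380 to 14000 CPM in Fgfr3, and 2 of them, the globin genes Hba-a1 and Hbb-bt, were called higher in Dlx5. The part of these markers in the differences below was not tested, and in pooled RNA fewer cells of a type and less RNA per cell cannot be told apart.

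Of the 10 genes, 4 were higher in the Dlx5-derived CAR cells: Hspg2, Nid2, Lama2 and Lamb1, by 4.29-fold, 3.70-fold, 3.15-fold and 2.69-fold. None was higher in the Fgfr3-derived cells. Lamc1 and Nid1 were also lower in the Fgfr3 libraries, but by less than the 2-fold that a call required, and Lama4, Lamb2 and Agrn did not pass the test. Lama5 was close to the lower end of what the libraries measured. A gene was called where its adjusted p fell under 0.05 and its log2 fold change exceeded 1 in size in edgeR's quasi-likelihood test, run on 10093 protein-coding genes and reporters that reached a CPM of 10 in at least 2 libraries. Among these genes 13.1% were called higher in Dlx5 and 16.4% higher in Fgfr3, against 4 and 0 of the 9 members that entered the test. Scaling by library size alone moved the calls over all genes from 1320 to 1010 higher in Dlx5 and from 1655 to 1988 higher in Fgfr3, and left the members at 4 and 0. No member was higher in Fgfr3 at an unadjusted p under 0.05 either, in edgeR or in DESeq2, and edgeR's exact test and DESeq2 called 0 there as well. The libraries of the lineages did not overlap for 7 of the 10 genes, with Dlx5 above in every case, whereas 34.1% of all genes tested had the Dlx5 libraries above and 34.8% the Fgfr3 libraries above. The median log2 fold change (Fgfr3 over Dlx5, so that negative values mean higher in Dlx5) was -0.92 over the 9 members tested and 0.01 over all genes tested. Because the members were chosen with earlier results of these data known, these contrasts with all genes are a description only. With each library's trend on gene length removed, calls higher in Dlx5 over all genes fell from 1320 to 1148, and the members stayed at 4 and 0. The log2 fold change then was -1.54 for Hspg2 (-2.10 before), -1.02 for Lama2 (-1.65), -1.14 for Lamb1 (-1.43) and -2.03 for Nid2 (-1.89). Those of Lama4, Lamc1 and Agrn shrank as well, and that of Nid1 stayed at -0.92.

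**Figure D1:**
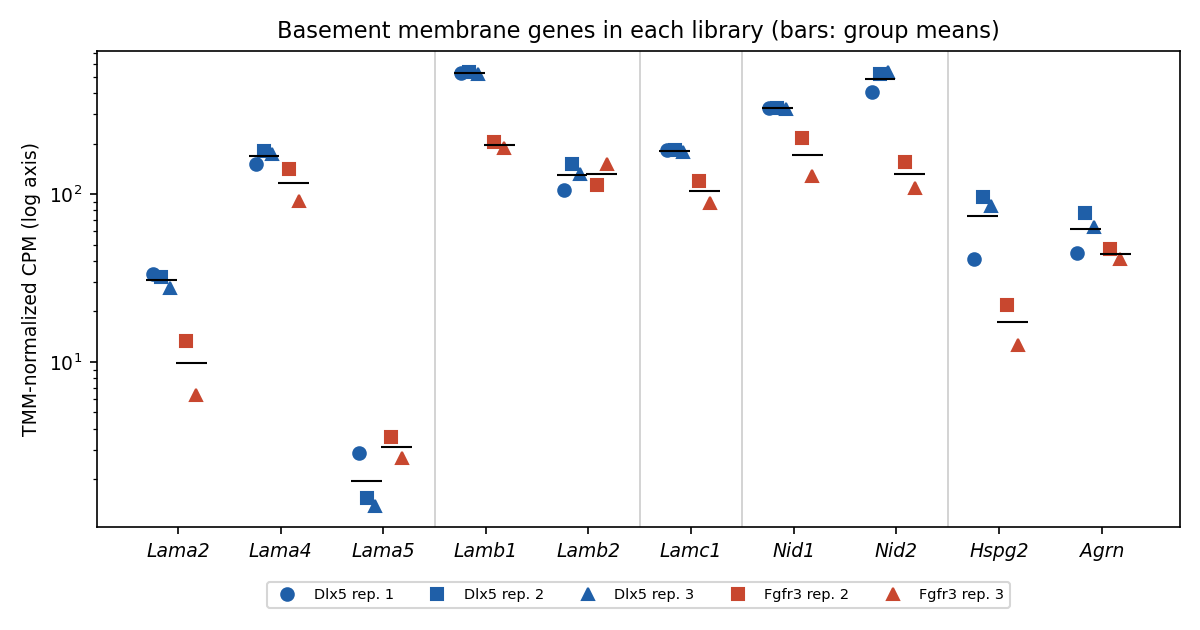
Level of each gene in each library as TMM-normalized CPM on a log axis, with Dlx5 libraries in blue, Fgfr3 libraries in red and group means as black bars; grey lines separate alpha, beta and gamma chains, nidogens and proteoglycans. The red points lie below all blue points for Lama2, Lama4, Lamb1, Lamc1, Nid1, Nid2 and Hspg2, and mix with them for Lama5, Lamb2 and Agrn.

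The alpha chain decides which receptors a laminin binds. Lama2 (ENSMUSG00000019899, chr10:26980036-27619758, minus strand, GRCm38 as for all positions here) encodes the alpha chain of merosin, the laminin of skeletal muscle and peripheral nerve whose loss causes congenital muscular dystrophy. Its level was 33.4, 32.1 and 27.6 CPM in Dlx5 replicates 1, 2 and 3, and 13.4 and 6.36 CPM in Fgfr3 replicates 2 and 3. Both Fgfr3 libraries lay below every Dlx5 library, and the Fgfr3 libraries were themselves 2.10-fold apart. The means were 31 ± 3.04 (SD, n = 3) and 9.86 ± 4.95 CPM (SD, n = 2), and the log2 fold change was -1.65 (SE 0.33, adjusted p = 0.00609, edgeR quasi-likelihood test). Removing each library's trend on gene length moved this to -1.02, a fold more than 1.5 times smaller, with the call kept. Without Fgfr3 replicate 3 it was -1.16, and it stayed called. Of its exonic sequence, 3.28% of 50-base windows occur in another gene, the antisense gene Gm48084. Markers of skeletal muscle (5 of 7 genes in the file) summed to 20 to 27.2 CPM in Dlx5 and 11.8 to 16.3 CPM in Fgfr3, and those of Schwann cells (6 of 7 genes in the file) to 129 to 204 and 68.7 to 88.1 CPM. Most of the latter was Pmp22, which was called higher in Dlx5, while Mbp was called higher in Fgfr3. Most of the muscle sum was Actn3, at 15.1 to 22.6 CPM in Dlx5 and 9.33 to 10.9 CPM in Fgfr3. Acta1 measured 2.03 to 2.21 CPM in Dlx5 and 0.0316 to 0.0325 CPM in Fgfr3. Mylpf had the higher mean in Fgfr3, at 1.19 to 2.35 CPM in Dlx5 and 2.27 and 4.54 CPM in Fgfr3, and its libraries overlapped. Ckm reached at most 0.568 CPM in any library. The part of these cells in the Lama2 level was not tested.

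Lama4 (ENSMUSG00000019846, chr10:38965515-39110188, plus strand), the alpha chain of vessels, fat and marrow stroma, was the most abundant alpha chain in all 5 libraries. It measured 151.2, 181.9 and 172.9 CPM in the Dlx5 libraries and 141.6 and 90.9 CPM in the Fgfr3 libraries. The groups did not overlap, but Fgfr3 replicate 2 lay only just below the lowest Dlx5 library. The log2 fold change of -0.54 (SE 0.21, 95% interval -1.03 to -0.04) had an adjusted p of 0.0726 in edgeR's quasi-likelihood test and was not called. Without Fgfr3 replicate 3 it was -0.19, without Fgfr3 replicate 2 it was -0.82 (adjusted p = 0.0104, edgeR quasi-likelihood test), and with the length trend removed it was -0.11. DESeq2 gave it an adjusted p of 0.0429, and no setting put it past the fold threshold. Lama5 (ENSMUSG00000015647, chr2:180176373-180225859, minus strand) encodes the alpha chain found in most adult epithelial and vascular basement membranes. It had 88, 33 and 35 counts in the Dlx5 libraries and 219 and 169 counts in the Fgfr3 libraries, or 2.87, 1.55 and 1.39 against 3.56 and 2.67 CPM. Dlx5 replicate 1 lay between the Fgfr3 libraries. Lama5 failed the filter on low values, and a fit with the filter lowered to a CPM of 1, which let in 13235 genes, gave a log2 fold change of 0.65 (SE 0.49, 95% interval -0.5 to 1.81, adjusted p = 0.314, edgeR quasi-likelihood test), an interval that holds both no difference and a rise of more than 2-fold.

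Among the beta chains, Lamb1 and Lamb2 behaved differently. Lamb1 (ENSMUSG00000002900, chr12:31265234-31329644, plus strand), the beta chain of most early and stromal laminins, measured 529.9, 532.3 and 519.7 CPM in Dlx5 and 204 and 187.9 CPM in Fgfr3. The libraries of each lineage lay close together, with means of 527.3 ± 6.70 (SD, n = 3) and 196 ± 11.4 CPM (SD, n = 2), far apart from each other. The log2 fold change was -1.43 (SE 0.14, 95% interval -1.76 to -1.10, adjusted p = 0.000337, edgeR quasi-likelihood test), the smallest standard error among the members. Lamb2 (ENSMUSG00000052911, chr9:108479736-108490530, plus strand), the beta chain known from the neuromuscular junction and the kidney glomerulus, measured 105.3, 151.1 and 132.6 CPM in Dlx5 and 113.9 and 151 CPM in Fgfr3. The groups overlapped throughout. Its log2 fold change was 0.03 (SE 0.20, 95% interval -0.44 to 0.51, adjusted p = 0.91, edgeR quasi-likelihood test), and its sign turned under 5 of 17 other settings. The interval leaves out a 2-fold difference in either direction.

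The sequence just before each beta chain gene is shown because these genes had unlike changes. Both are RefSeq reference sequence (GRCm38.p6), 5′ to 3′ on the gene's strand, cut at the gene start that GENCODE gives, with GC boxes (GGGCGG on either strand) in capitals. The Lamb1 stretch covers chr12:31265043-31265233 and the Lamb2 stretch chr9:108479612-108479735.
Lamb1: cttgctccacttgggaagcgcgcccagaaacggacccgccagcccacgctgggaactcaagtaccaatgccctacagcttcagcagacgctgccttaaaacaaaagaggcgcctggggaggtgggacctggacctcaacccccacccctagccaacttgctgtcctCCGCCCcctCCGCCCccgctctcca
Lamb2: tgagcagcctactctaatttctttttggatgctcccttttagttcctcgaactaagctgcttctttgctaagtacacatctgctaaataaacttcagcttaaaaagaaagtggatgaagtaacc
Lamb1 has 2 GC boxes here and Lamb2 none. In the full 250 bases before the RefSeq start, Lamb1 had 62% G and C and 14 CpG sites, Lamb2 43.6% and 3. Over 32851 RefSeq promoters of that length the medians were 52.4% and 6, and 32.7% held at least 1 GC box. These letters are a description of the windows, and their part in the levels was not tested.

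Lamc1 (ENSMUSG00000026478, chr1:153218922-153332786, minus strand) encodes the gamma chain that nearly all laminins share and that nidogens bind. It measured 182.5, 183.8 and 177.9 CPM in Dlx5 and 119.6 and 89 CPM in Fgfr3. The Dlx5 libraries were nearly equal and all above both Fgfr3 libraries. The log2 fold change was -0.80 (SE 0.16, 95% interval -1.18 to -0.41, adjusted p = 0.00658, edgeR quasi-likelihood test), a 1.74-fold lower level that passed the test but not the fold threshold. Lamc3, another gamma chain, had counts in Dlx5 replicate 2 alone, at 0.706 CPM.

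Nidogens bridge the laminin and collagen IV networks. Nid1 (ENSMUSG00000005397, chr13:13437551-13512269, plus strand) measured 325.4, 327.5 and 323.6 CPM in Dlx5 and 216.4 and 128.2 CPM in Fgfr3. The Dlx5 libraries spanned less than 4 CPM, while Fgfr3 replicates 2 and 3 were 1.69-fold apart. The log2 fold change was -0.92 (SE 0.23, 95% interval -1.46 to -0.37, adjusted p = 0.0149, edgeR quasi-likelihood test), under the fold threshold. The Fgfr3 libraries decided this: without replicate 2 the value was -1.27 and Nid1 was called, and without replicate 3 it was -0.53. Nid2 (ENSMUSG00000021806, chr14:19751265-19811787, plus strand) measured 408.4, 521.5 and 532.6 CPM in Dlx5 and 155.3 and 108.4 CPM in Fgfr3. Every Dlx5 library was more than 2.5 times as high as the higher Fgfr3 library. The means were 487.5 ± 68.7 (SD, n = 3) and 131.9 ± 33.2 CPM (SD, n = 2), and the log2 fold change was -1.89 (SE 0.22, 95% interval -2.41 to -1.36, adjusted p = 0.000699, edgeR quasi-likelihood test). Nid2 overlaps Rtraf on the other strand, and 7.5% of its 50-base windows are shared with that gene. For Nid1 the share was 3.22%, with Gm2399 and Gm48682. Without a strand in the counting, reads in such stretches cannot be told apart.

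Perlecan and agrin are the heparan sulfate proteoglycans of basement membranes, large core proteins whose sugar chains hold growth factors. Hspg2 (ENSMUSG00000028763, chr4:137468769-137570630, plus strand) measured 41.1, 96.2 and 84.7 CPM in Dlx5 and 21.9 and 12.6 CPM in Fgfr3. Dlx5 replicate 1 had less than 0.5 times the level of the other Dlx5 libraries, and the groups still did not overlap. The log2 fold change of -2.10 was the largest in size among the members and had a wide error (SE 0.42, 95% interval -3.09 to -1.11, adjusted p = 0.00609, edgeR quasi-likelihood test). Without Dlx5 replicate 1 it was -2.39, and without Fgfr3 replicate 3 it was -1.69 with an adjusted p of 0.0469. Agrn (ENSMUSG00000041936, chr4:156165290-156197488, minus strand), best known for gathering acetylcholine receptors at the neuromuscular junction, measured 44.6, 77.4 and 64 CPM in Dlx5 and 46.9 and 41.3 CPM in Fgfr3. Dlx5 replicate 1 was again the lowest of its group and lay between the Fgfr3 libraries. The log2 fold change was -0.49 (SE 0.24, 95% interval -1.06 to 0.08, adjusted p = 0.132, edgeR quasi-likelihood test) and was not called. Without Dlx5 replicate 1 it was -0.68 with an adjusted p of 0.0231, still under the fold threshold.

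The stretches before the perlecan and agrin genes are shown as for the beta chains, since of these proteoglycans 1 was called and 1 was not. They cover chr4:137468553-137468768 for Hspg2 and, on the minus strand, chr4:156197489-156197738 for Agrn, from the first of its 2 RefSeq starts.
Hspg2: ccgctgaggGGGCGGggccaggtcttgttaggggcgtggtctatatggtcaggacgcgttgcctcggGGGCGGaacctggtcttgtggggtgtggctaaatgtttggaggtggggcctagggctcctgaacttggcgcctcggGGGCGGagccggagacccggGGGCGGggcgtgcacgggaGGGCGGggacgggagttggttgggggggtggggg
Agrn: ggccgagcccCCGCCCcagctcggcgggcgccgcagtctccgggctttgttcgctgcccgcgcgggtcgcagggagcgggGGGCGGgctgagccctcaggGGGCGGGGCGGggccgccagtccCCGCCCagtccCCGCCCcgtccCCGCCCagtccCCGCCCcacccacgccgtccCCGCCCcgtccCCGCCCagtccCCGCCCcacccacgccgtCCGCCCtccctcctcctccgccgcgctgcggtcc
Hspg2 has 5 GC boxes and Agrn 12, against 4 or more in 4.1% of all promoters. In the 250 bases before the RefSeq start, G and C made up 70% for Hspg2 and 83.6% for Agrn. Both windows are rich in G and C, and the part of these sequences in the levels was not tested. Of the 10 genes, 7 had a promoter sequence to compare.

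**Figure D2:**
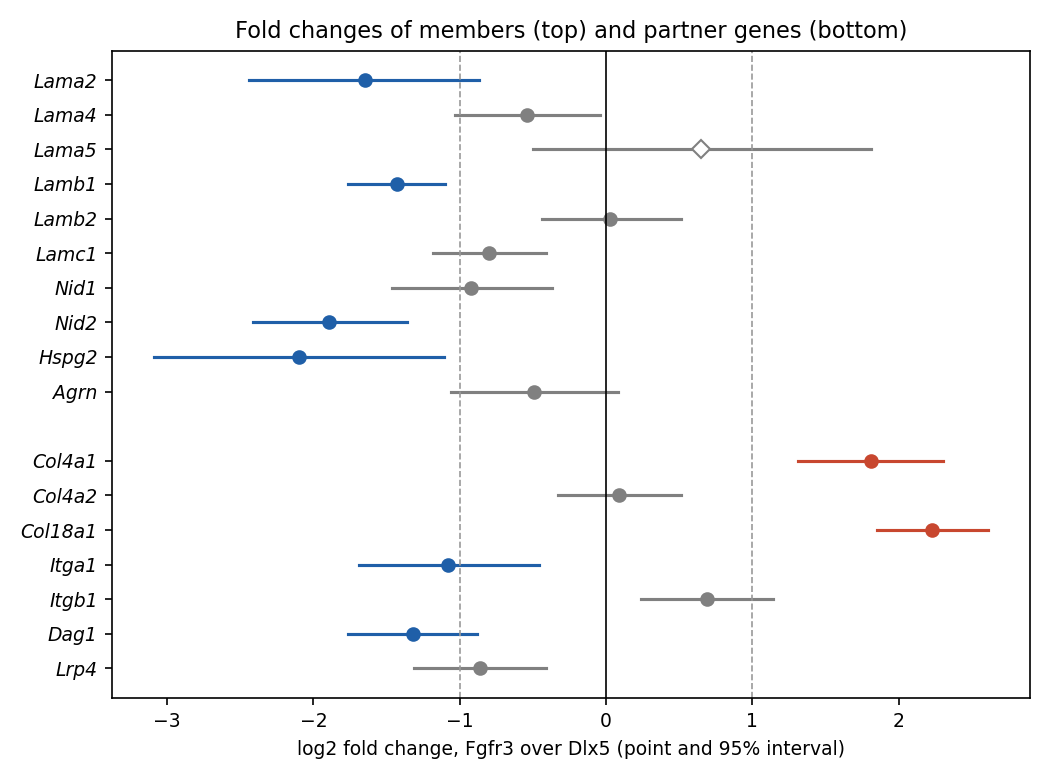
Log2 fold change of Fgfr3 over Dlx5 with its 95% interval for the 10 genes (top) and 7 partner genes (bottom); blue marks genes called higher in Dlx5, red higher in Fgfr3, grey not called, the open diamond the value of Lama5 from the lower filter, and dashed lines the fold threshold of 1. Lama2, Lamb1, Nid2 and Hspg2 are blue, no member is red, and Col4a1 and Col18a1 are.

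Levels of different genes were compared per kilobase of merged exons. In the Dlx5 libraries the order was Nid2 (94.2 ± 13.3 CPM per kilobase, SD, n = 3), Lamb1 (53.2 ± 0.676), Nid1 (46.9 ± 0.277), Lamc1 (21.9 ± 0.377), Lamb2 (21.3 ± 3.79), Lama4 (14 ± 1.31), Agrn (6.68 ± 1.78), Hspg2 (5.17 ± 2.03), Lama2 (1.9 ± 0.186) and Lama5 (0.17 ± 0.0712). Of these neighbours, the libraries of Lamc1 and Lamb2 overlapped, as did those of Agrn and Hspg2. In the Fgfr3 libraries, Nid2 (25.5 ± 6.42 CPM per kilobase, SD, n = 2), Nid1 (24.8 ± 8.99), Lamb2 (21.8 ± 4.31) and Lamb1 (19.8 ± 1.15) overlapped from one neighbour to the next. Lamc1 (12.6 ± 2.62) and Lama4 (9.64 ± 2.97) overlapped as well, and Agrn, Hspg2, Lama2 and Lama5 followed in that order, each below the one before in both libraries. With the longest transcript as the length, Lamb1 came first in Fgfr3 and Lama4 moved above Lamc1 in both lineages.

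The make-up of each class followed from these levels, and it is given as the percent of the summed CPM per kilobase of a class. Lama4 made up 66.71, 78.71 and 78.11% of the alpha chains in Dlx5 and 85.79 and 83.01% in Fgfr3. Lama2 made up 10.1 ± 0.846% (SD, n = 3) and 5.13 ± 1.20% (SD, n = 2), and Lama5 0.907 ± 0.378% and 2.43 ± 0.208%. Lama1, an alpha chain of the early embryo and no member of the set, made up 13.4 ± 5.17% and 7.07 ± 3.23%, and Lama3 about 1% in both lineages. None of the shares of Lama1, Lama2, Lama4 and Lama5 overlapped between the lineages, but that of Lama1 did when levels were not divided by length.

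The beta chains showed the largest shift. Lamb1 made up 75.41, 68.27 and 70.51% of them in Dlx5 and 52.22 and 43.11% in Fgfr3, with Lamb2 as nearly all of the rest. The mean share of Lamb1 was 23.7 percentage points lower in Fgfr3. Nid1 made up 37.25, 31.88 and 31.17% of the nidogens in Dlx5 and 50.94 and 46.85% in Fgfr3, 15.5 points more on average. There are 10 ways to split 5 libraries into 3 and 2, so an exact permutation test of a share cannot reach 0.05, and the shares are given without a test. The summed level of each class was lower in both Fgfr3 libraries than in any Dlx5 library, at 18.8 ± 0.405 (SD, n = 3) against 11.4 ± 3.25 CPM per kilobase (SD, n = 2) for alpha chains, 74.6 ± 3.89 against 41.7 ± 3.22 for beta chains and 141 ± 13.3 against 50.3 ± 15.4 for nidogens.

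**Figure D3:**
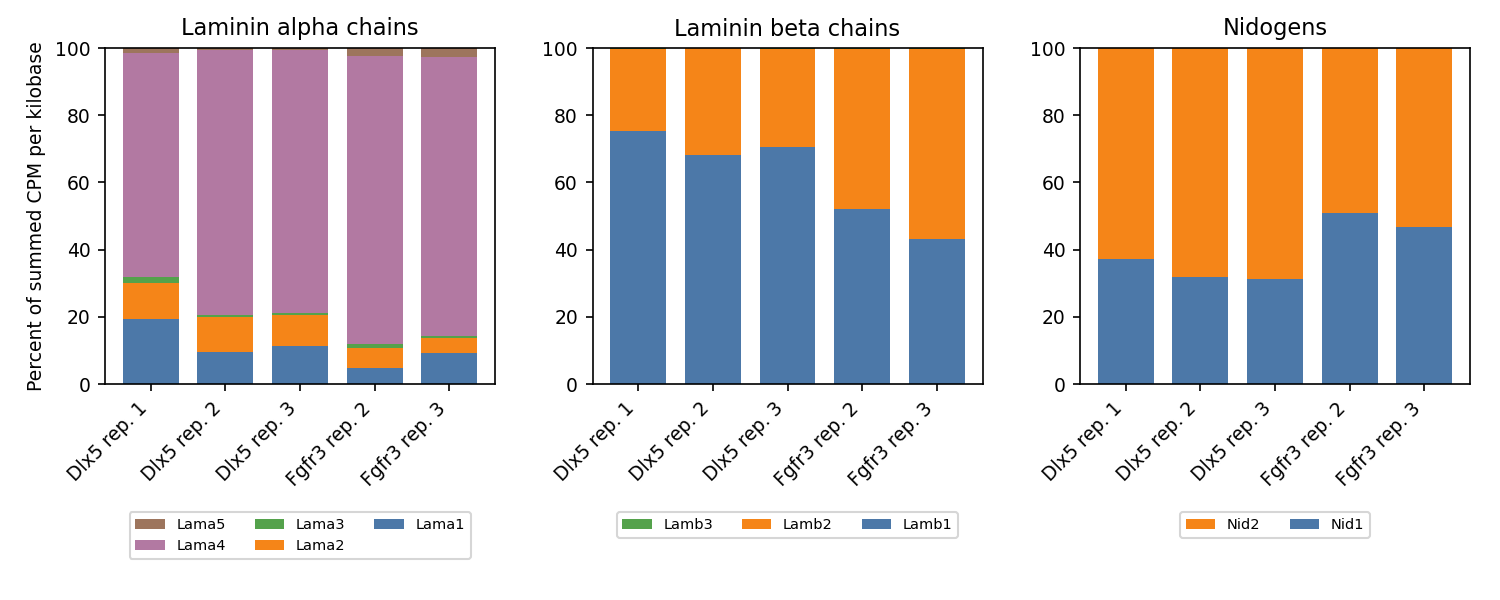
Percent of the summed CPM per kilobase of merged exons that each gene took among laminin alpha chains, beta chains and nidogens, in stacked bars for each of the 5 libraries. Lamb1 took 68.27 to 75.41% of the beta chains in Dlx5 and 43.11 to 52.22% in Fgfr3, and Lama4 took most of the alpha chains everywhere.

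The Fgfr3 libraries differed from each other in a direction that most of the genes shared. Fgfr3 replicate 2 was above replicate 3 for 9 of the 10 genes (90%), all but Lamb2, compared with 51.5% of all genes tested. The summed CAR cell markers were also higher in replicate 2 (11600 against 7900 CPM), as were the chondrocyte markers (3240 against 437 CPM) and the megakaryocyte markers (68.2 against 16.4 CPM), while the pan-leukocyte markers were lower (1110 against 2310 CPM). Whether cell make-up had a part in this was not tested.

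**Figure D4:**
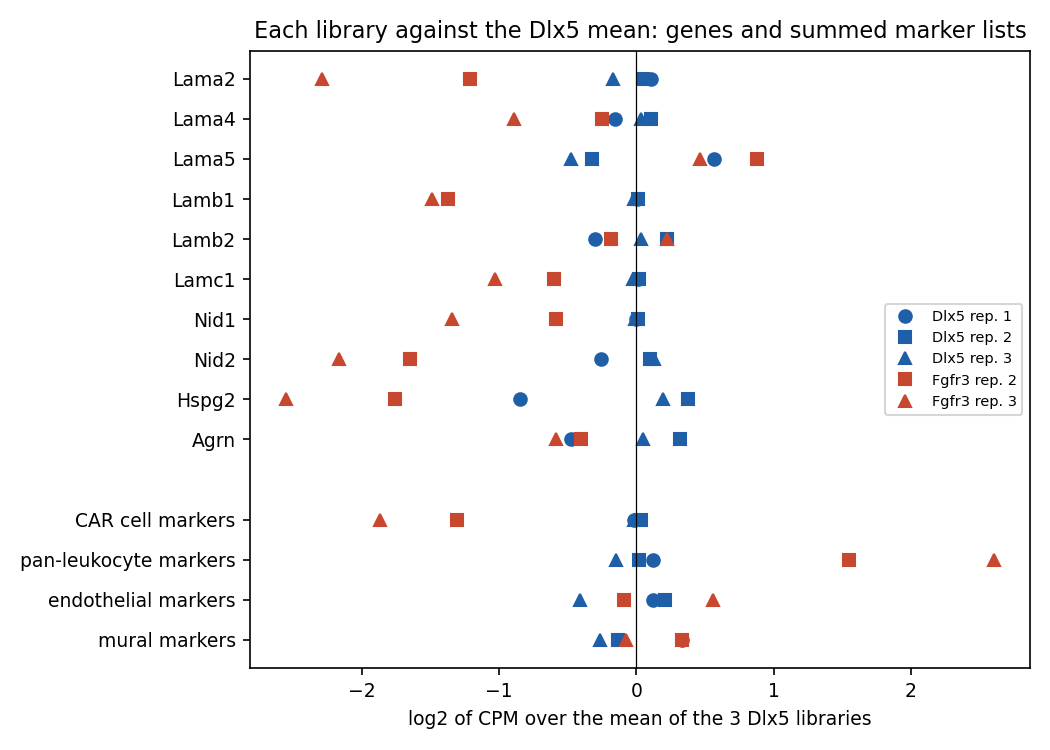
Log2 of the CPM in each library over the mean of the 3 Dlx5 libraries, for the 10 genes (top) and the summed levels of 4 marker lists (bottom), with Dlx5 libraries in blue and Fgfr3 libraries in red. Fgfr3 replicate 3 (red triangle) lies left of replicate 2 (red square) for every gene but Lamb2 and for the CAR cell markers, and right of it for the pan-leukocyte markers.

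Partners of these proteins were examined as 8 related lists of 88 genes, of which 86 were in the table and 53 were tested. Over all genes tested, 16.4% were called higher in Fgfr3 and 13.1% higher in Dlx5. Of the 53 related genes tested, 13 were called higher in Fgfr3 and 13 higher in Dlx5, with a median log2 fold change of -0.15. Scaled by library size alone, the calls were 14 and 9. Of the 5 other laminin chains, Lama1 alone was tested. It measured 35, 17.7 and 20 CPM in Dlx5 and 6.34 and 8.22 CPM in Fgfr3, and its log2 fold change of -1.74 (SE 0.35, adjusted p = 0.00631, edgeR quasi-likelihood test) made it higher in Dlx5.

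Of 8 collagens of the basement membrane, 3 were tested, 2 were higher in Fgfr3 and none was higher in Dlx5. Col4a1, a chain of the main collagen IV trimer, measured 194.1, 275.9 and 304.3 CPM in Dlx5 and 893.8 and 914.5 CPM in Fgfr3, a log2 fold change of 1.81 (SE 0.21, adjusted p = 0.000636, edgeR quasi-likelihood test). Its partner chain Col4a2, encoded next to it and read in the other direction, measured 291.5, 321.8 and 331.6 against 281 and 388 CPM and was not called, with a log2 fold change of 0.09 (SE 0.18, adjusted p = 0.713, edgeR quasi-likelihood test). The Col4a1 libraries were clearly apart, and the Col4a2 libraries overlapped. Col18a1, which carries endostatin, measured 10.8 to 13.1 CPM in Dlx5 and 56.5 to 58.1 CPM in Fgfr3 (log2 fold change 2.23). Mural markers were mixed. Mcam measured 1.35 to 2.19 CPM in Dlx5 and 18.7 to 19.1 CPM in Fgfr3, and Acta2 3.16 to 13.6 and 31.3 to 36.8 CPM. Cspg4 and Tagln were also higher in Fgfr3. Myh11 went the other way, at 2.92 to 7.84 CPM in Dlx5 and 0.489 to 0.861 CPM in Fgfr3. The libraries overlapped for Rgs5, Kcnj8, Abcc9, Notch3 and Cnn1. Summed mural and endothelial markers overlapped between the lineages, and their part in the collagen levels was not tested.

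Among 16 linkers and other glycoproteins, 8 were tested, 2 were higher in Dlx5 and 1 in Fgfr3. The SPARC-family proteins Smoc1 and Smoc2 moved in opposite directions. Smoc1 measured 345.2, 346 and 377.6 CPM in Dlx5 and 53.8 and 92.4 CPM in Fgfr3 (log2 fold change -2.28), and Smoc2 16.6, 17.5 and 22 against 76 and 98.4 CPM (2.22). Peroxidasin (Pxdn), which crosslinks collagen IV, had a log2 fold change of -1.19, and it was no longer called without Fgfr3 replicate 3 (-0.80), with library size alone (-0.98), with the length trend removed (-0.95) or in the test for more than 2-fold change. Netrin-4 (Ntn4), a laminin-related protein that binds laminin networks and was picked here after its values were seen, failed the filter. It had 0, 1 and 2 counts in Dlx5 and 688 and 476 counts in Fgfr3. The mean of the 2 Fgfr3 libraries (9.34 CPM) was at least 66.1-fold higher, measured against 3 counts in the shallowest Dlx5 library (0.141 CPM).

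Of the laminin receptors, 3 of 8 were tested. Dystroglycan (Dag1), which binds the alpha chains as well as perlecan and agrin, measured 377.7, 372.3 and 410.6 CPM in Dlx5 and 180.2 and 129.2 CPM in Fgfr3, with a log2 fold change of -1.32 (SE 0.18, adjusted p = 0.00138, edgeR quasi-likelihood test). The integrin chain Itga1 had a log2 fold change of -1.08, and it was no longer called with the length trend removed (-0.32), without Fgfr3 replicate 3 (-0.71), with library size alone (-0.87), without Dlx5 replicate 2 (-1) or in the test for more than 2-fold change. Itgb1, the beta chain of most laminin-binding integrins, measured 536.1, 549.7 and 679.1 against 1082.1 and 817.4 CPM, and its log2 fold change of 0.69 passed the test (adjusted p = 0.0221, edgeR quasi-likelihood test) but not the fold threshold. The pass was lost with the length trend removed and without Dlx5 replicate 1, Dlx5 replicate 2 or Fgfr3 replicate 2, with values of 0.50 to 0.64 and adjusted p of 0.0551 to 0.0929. Itga6, an alpha chain of laminin-binding integrins that leukocytes and platelets also carry, failed the filter at 1.14 to 1.67 CPM in Dlx5 and 5.64 and 11.1 CPM in Fgfr3, and had a log2 fold change of 2.63 with the lower filter. Bcam, a receptor of Lama5, lay at 1.11 to 1.93 and 2.14 and 3.6 CPM, and was not called with the lower filter (0.85).

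The dystroglycan complex and the enzymes that build its sugar chains held 14 tested genes of 16, of which 1 was higher in Dlx5 and 2 in Fgfr3. Utrophin (Utrn), which links the complex to actin, measured 72.8, 78.6 and 75.8 CPM in Dlx5 and 29 and 23.9 CPM in Fgfr3 (log2 fold change -1.52, and -0.80 and not called with the length trend removed). Pomgnt1, a glycosyltransferase of dystroglycan, had a log2 fold change of 2.22, with 15.3 to 16.6 CPM in Dlx5 and 69 and 78.5 CPM in Fgfr3. Of 4 genes of the agrin receptor complex, Lrp4, to which agrin binds, was the only one tested. It measured 28.4, 33.9 and 31.9 against 15.2 and 19.4 CPM and passed the test with a log2 fold change of -0.86 (adjusted p = 0.00932, edgeR quasi-likelihood test) but not the fold threshold, and it was -0.51 (adjusted p = 0.089) with the length trend removed.

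Cell surface heparan sulfate proteoglycans changed in both directions. Of 10 genes 8 were tested, 5 were higher in Dlx5 and 2 higher in Fgfr3. Gpc1, a lipid-anchored glypican, measured 49.4, 55.6 and 61.5 CPM in Dlx5 and 758.3 and 1028 CPM in Fgfr3, a log2 fold change of 4.01 (SE 0.19, adjusted p = 4.24e-05, edgeR quasi-likelihood test). The syndecan Sdc3 had a log2 fold change of 3.26. Gpc3 (-2.62), Sdc4 (-2.51) and Gpc6 (-1.69) were higher in Dlx5, Gpc6 at 278.4 to 372.5 CPM there and 95.7 to 113.8 CPM in Fgfr3. Of 21 genes that make or edit heparan sulfate, 15 were tested, 6 were higher in Fgfr3 and 2 in Dlx5. The sulfotransferases Ndst2 (log2 fold change 2.28) and Hs2st1 (1.53) and the linker enzyme B3gat3 (1.72) were higher in Fgfr3. Sulf1, which removes sulfate from finished chains outside the cell (-1.72), and Extl3, which starts chains (-1.51), were higher in Dlx5. For the genes named in this paragraph, picked as called genes with large changes, the libraries of the lineages did not overlap. Over all genes tested, 34.1% had the Dlx5 libraries above and 34.8% the Fgfr3 libraries above. Sdc2 and Glce of these lists were tested too and overlapped.

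**Figure D5:**
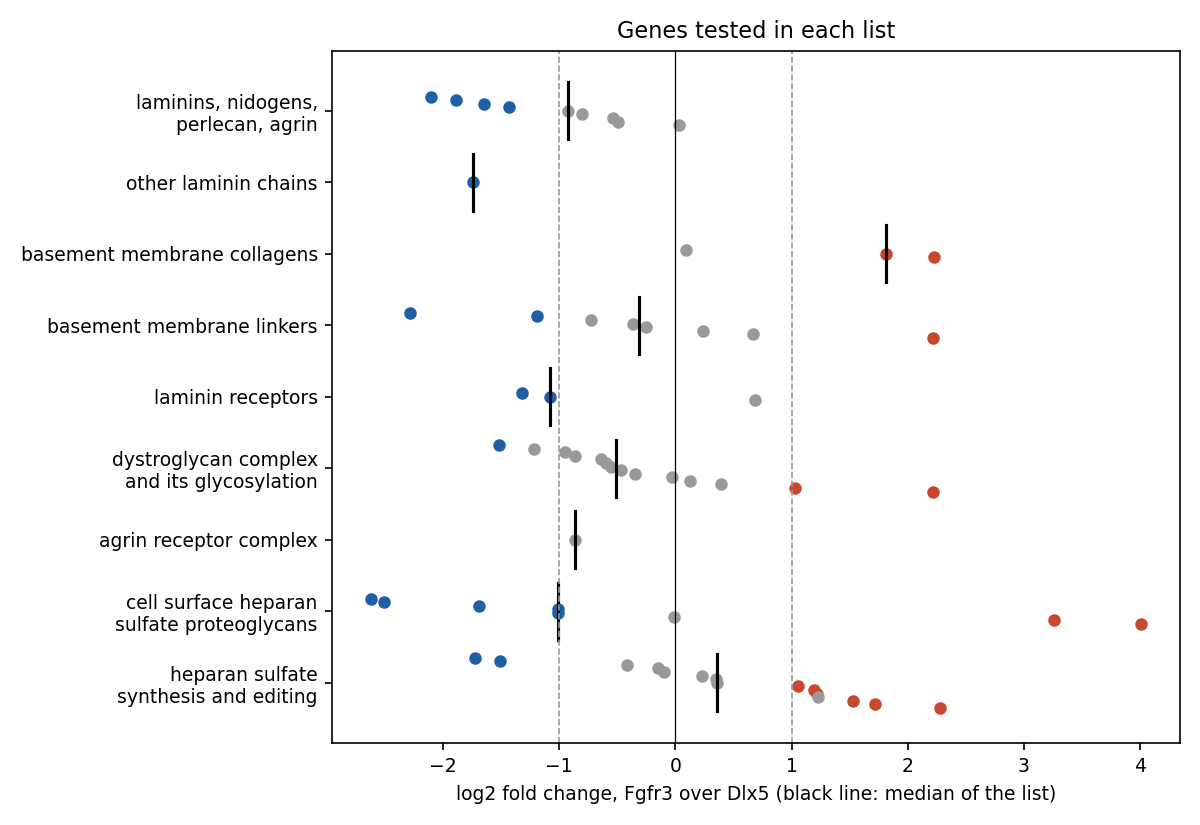
Log2 fold change of Fgfr3 over Dlx5 for each tested gene, in rows for the members and the 8 related lists; blue marks genes called higher in Dlx5, red higher in Fgfr3 and grey not called, with the median of each list as a black line and the fold threshold as dashed lines. Members lie at or left of 0 but for Lamb2 at 0.03, collagens lie at or right of 0.09, and the cell surface proteoglycans reach from -2.62 to 4.01.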

How the data were processed

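Bulk RNA-seq was done on tdTomato+ cells with high GFP from 3 Dlx5 and 2 Fgfr3 pools, amplified with a SMART-Seq kit, which does not mark strand. The authors aligned reads to mm10 with TopHat2 2.0.13 and Bowtie2 2.2.1 and deposited whole-number counts per Ensembl gene without normalization. HTSeq is listed in the submitters' processing notes, and its strand setting is not given in the sources used here. The deposited normalized and rlog tables were not used.

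Groups came from the sample labels. Symbols, types and positions came from GENCODE M21 on GRCm38, in which 29996 of 30046 features were matched by identifier, and reporters were kept. Counts were fitted in edgeR 4.0.16 (R 4.3.3) with TMM and the quasi-likelihood test, without covariates, on 10093 protein-coding genes and reporters that reached a CPM of 10 in 2 or more libraries. Benjamini-Hochberg adjustment ran over all of them, and a call needed an adjusted p under 0.05 together with a log2 fold change beyond 1 in either direction. Intervals are 95% intervals of the fitted change. DESeq2 1.42.0 was an alternative. On simulated counts for this comparison (9913 genes tested) 193 of 193 changed genes were called the right way and 1 unchanged gene was called. The planted changes all lay well beyond the fold threshold, and every gene was given the same spread. The recovery therefore says nothing of smaller changes or of genes whose libraries vary more. With a GC trend between the groups added to the simulation (10059 genes tested), 162 of 194 changed genes were called the right way and 3904 unchanged genes were called, against 194 and 0 once the trend was removed.

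All 10 members were named, with up to 3 called genes of each related list and direction with the largest change, and a set of partners (Col4a1, Col4a2, Dag1, Itga6, Itgb1, Bcam, Lrp4 and Lamc3). Some genes that this rule covers are not reported here. The members and lists were chosen with earlier results of these data known. Each library counted as 1 sample, since the paper calls them biologically independent, and p-values measure the spread between these pools. How the mice were divided over the pools is not clear from the paper. No pair of libraries agreed within sampling noise, but amplification can add such differences too, so this cannot show that pools were independent. Reads carry no molecular identifiers, so count limits cover counting error only. Lineage could not be separated from the sequencing run. Alternatives covered the filter, scaling, test, fold threshold, GC content, gene length, a replicate block and leaving out each library.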

Additional observations from a re-analysis of the deposited data

How the results depend on the processing

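The 4 member calls higher in Dlx5 and 0 higher in Fgfr3 became 3 to 6 and 0 under the 17 alternatives. Of the 9 members tested, Lama4, Lamb1, Nid2, Hspg2 and Agrn kept direction and side of the threshold under all 17, and Lama5 could be fitted under 2 settings with lower filters. Lama2 lost its call in the test for more than 2-fold change (adjusted p = 0.071, edgeR), and Lamc1 and Nid1 gained one with no fold threshold. Related genes called higher in Dlx5 numbered 7 in the test for more than 2-fold change, against 13, a stricter test by construction. Lamb2 turned to -0.20 with the GC trend removed and to -0.03 with the length trend removed, and lay between -0.13 and 0.29 with 1 library left out. Col4a2 turned to -0.23 with the GC trend removed and lay between -0.10 and 0.38 with 1 library left out. The cause was not tested. Scaling by library size alone moved the median of all genes to 0.22, and no member changed sign. The Lama2 share of alpha chains differed by -6.7 points with no division by length (-5 with it), and that of Lama5 by 0.8 points with the longest transcript (1.5 with merged exons), both set by the length used. Of 27 related genes fitted singly, 18 kept direction and call under all alternatives that could fit them. Leaving out an Fgfr3 library leaves 1, which is then assumed to vary like the Dlx5 libraries.

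Replicate numbers 2 and 3 occur in both lineages but mark different mice. Same-numbered libraries had correlated deviations of 0.13 and -0.05. With the number as a replicate block, Lamb2 turned to -0.11, all genes called numbered 3067 against 2975, and 4 members were called higher in Dlx5. Its adjusted p was 0.0497 for Lama4, 0.0205 for Agrn and 0.1 for Itgb1, with no call changed among them.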
